A study of Mus musculus with 22 samples.

Results

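The clustered protocadherin genes are 58 genes that lie in 3 neighbouring clusters on mouse chromosome 18. They were chosen as every RefSeq gene of GRCm38 whose symbol starts with Pcdha, Pcdhb or Pcdhg followed by a number or a letter and that lies between positions 36900000 and 37900000. The alpha cluster held 14 of these genes (36930285 to 37188897), the beta cluster 22 (37264998 to 37521419) and the gamma cluster 22 (37661775 to 37841873). Of the 592579 autosomal CpGs with at least 10 reads in at least 5 samples of each condition, 334 lay in these genes or within 500 bp of their start sites. Of the 114430 analysed tiles of 100 bp, 88 belonged to them.

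The DNA came from forebrains of wild-type C57BL/6 embryos at E10.5, with 1 embryo per library. The 6 controls came from females injected with saline and the 16 EtOH-exposed embryos from females injected with ethanol before implantation. Methylation was read by rapid reduced representation bisulfite sequencing (rRRBS), which cuts DNA with MspI and covers mostly CpG-dense regions. Some embryos came from the same litter per the text of the study, but neither litter nor sex is in the labels, so neither entered a comparison. Every SD and test below treats embryos as independent although littermates shared a treated mother, and litter and library group cannot be told apart here. The control libraries held 68126469 to 132488556 calls and the EtOH-exposed libraries 89179413 to 216223892. A forebrain holds many cell types, so a different level within cells and a different mix of cells cannot be told apart, and methylation alone gave no check of the tissue by marker expression.

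Clustered protocadherins are cell-adhesion proteins of the nerve cell surface, and each gene of the alpha and gamma clusters has its own promoter and a long variable first exon, which is spliced to constant exons shared by the whole cluster, whereas beta genes have a single exon. Single neurons switch on a few of the alternate promoters in a largely random way, which gives each cell its own surface identity, while the C-type genes at the ends of the alpha and gamma clusters are used more uniformly. Methylation of the alternate promoters and first exons by DNMT3B in the early embryo, and binding of CTCF to unmethylated promoters, are known parts of this choice.

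The reference held 8422 CpGs in the member genes and start windows, of which 1477 had at least 10 reads in any sample. The 334 CpGs used here are 3.97% of the 8422, with a median of 123 reads, and 77 CpGs were measured in all 22 embryos. Start windows held 35 of the 334 in the alpha cluster, 15 in the beta cluster and 71 in the gamma cluster. The variable first exons beyond those windows held 29, 52 and 109. At least 2 CpGs in a start window were measured for 15 genes and in the rest of the first exon for 28 genes, and 23 of the 58 genes had neither. A level below is the unweighted mean over a gene's CpGs in 1 embryo, and a gene's mean and SD are over embryos. These levels are given as a description, with no test.

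The C-type genes Pcdhac2, Pcdhgc3 and Pcdhgc4 had the lowest start-window levels. At Pcdhac2 (start site 37143678, 20 CpGs) the 6 controls ranged from 0.331 to 2.33% with a median of 0.925%, and the 16 EtOH-exposed embryos from 0.27 to 2.85% with a median of 0.897%. At Pcdhgc3 (start site 37806410, 19 CpGs) the controls ranged from 0.585 to 2.48% with a median of 0.801%, and the EtOH-exposed embryos from 0.265 to 2.73% with a median of 0.984%. At Pcdhgc4 (start site 37815079, 11 CpGs) the controls ranged from 0.595 to 4.64% with a median of 0.96%, and the EtOH-exposed embryos from 0.162 to 2.64% with a median of 1.01%. The groups overlapped at all 3 genes. Pcdhac1, the other C-type gene of the alpha cluster (start site 37090136, 12 CpGs), was higher, with 8.27 to 16.4% in the controls (median 11.9%) and 7.6 to 16.3% in the EtOH-exposed embryos (median 11.6%), which is above the levels of the alternate gene Pcdhga11. Pcdhgc5, the last gene of the gamma cluster, had no measured CpG in its start window, and its only CpG in the first exon stood at 11.03% in 5 controls and 13.9% in 9 EtOH-exposed embryos.

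Alternate genes, meaning all members other than the C-type genes, were partly methylated at their start windows. Their control means ranged from 6.01 to 79.2% over 11 genes, with a median of 29.4%, and 8 of the 11 lay between 20 and 80%. In 5 of 6 controls and 16 of 16 EtOH-exposed embryos, Pcdhac2, Pcdhgc3 and Pcdhgc4 were each lower than every alternate gene measured in the same embryo. The exception was control 2, where Pcdhga8 stood at 4.0% from 2 of its 8 CpGs and Pcdhgc4 at 4.64% from 8 of its 11 CpGs. The C-type genes in this count were taken for their low levels, so the count is a description only. Pcdhac1, which was higher, was left out of it.

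In the alpha cluster only Pcdha8 could be read among the alternate start windows (start site 36992467, 3 CpGs). Its 5 measured controls stood at 76.4, 76.7, 79.8, 81.0 and 82.2%, and the 16 EtOH-exposed embryos ranged from 55.6 to 85.6% with a median of 76.1%. Of the EtOH-exposed embryos, 9 lay under all controls and 1 over all of them. With a minimum of 5 reads, 12 CpGs of this window entered and its control mean was 54.7% and its difference 10.8 percentage points in place of -5.17, so the value depends on which CpGs are read.

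Beta genes covered a wide range at their start windows. Pcdhb13 (start site 37442517, 2 CpGs) stood at 72.0, 72.1, 72.3, 72.7 and 75.2% in 5 controls and at 54.0 to 86.8% in 14 EtOH-exposed embryos (median 73.4%). Pcdhb3 (start site 37300799, 2 CpGs) stood at 60.3, 64.3, 67.9, 73.1 and 76.1% in 5 controls and at 61.1 to 81.6% in 16 EtOH-exposed embryos (median 74.5%), of which 5 lay above the highest control. These were the highest beta windows, and the groups overlapped at both. Pcdhb12 (start site 37435621, 2 CpGs) stood at 31.1, 38.2, 40.9, 52.8 and 56.7% in 5 controls and at 25.6 to 57.6% in 12 EtOH-exposed embryos (median 33.7%). Pcdhb1, the first gene of the cluster (start site 37264998, 9 CpGs), stood at 36.1, 36.2, 37.7, 38.3 and 40.8% in 5 controls and at 26.4 to 41.8% in 16 EtOH-exposed embryos (median 33.3%). At Pcdhb1, 11 EtOH-exposed embryos lay under all controls and 2 over all of them. Its CpGs in CCGG sites, which MspI cuts, had differences of -18.8 and -7.52 percentage points. The other CpGs of this window had differences of -8.16 to 2.70.

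Gamma A and gamma B start windows were lower, from 6.01 to 29.4% in controls. Pcdhga1 (start site 37661775, 16 CpGs) stood at 28.4, 28.7, 29.1, 29.3 and 31.4% in 5 controls and at 21.4 to 37.8% in the EtOH-exposed embryos (median 28.0%). Its 5 controls thus spanned a narrower range than the 16 EtOH-exposed embryos, of which 8 lay below and 3 above all controls. Pcdhga2 (start site 37668927, 3 CpGs) stood at 20.03, 22.6, 27.5, 29.7 and 30.3% in 5 controls and at 11.8 to 35.6% in 14 EtOH-exposed embryos (median 19.1%), 7 of them below the lowest control. Pcdhgb4 (start site 37720376, 3 CpGs) stood at 9.01, 13.3, 16.7, 16.9 and 20.8% in 5 controls and at 5.28 to 30.6% in the EtOH-exposed embryos (median 15.3%). The groups overlapped at these 3 genes.

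Pcdhgb5 (start site 37730971, 6 CpGs) ranged from 9.62 to 40.6% in 6 controls (median 18.2%) and from 9.01 to 34.4% in the EtOH-exposed embryos (median 18.1%). Pcdhga8 (start site 37725706, 8 CpGs) ranged from 4.0 to 24.1% in 6 controls (median 18.8%) and from 16.6 to 28.7% in the EtOH-exposed embryos (median 20.3%). Control 2 gave the highest control value at Pcdhgb5 and the lowest at Pcdhga8, the latter from 2 of 8 CpGs. Among embryos with a value at every CpG of the window, the EtOH-exposed mean of Pcdhga8 was higher by 1.94 percentage points, against 4.35 over all embryos.

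Pcdhga11 (start site 37755773, 5 CpGs, all between 60 and 126 bp upstream) had the lowest level among the alternate genes. The 6 controls ranged from 4.82 to 7.69% with a median of 5.79%, and the 16 EtOH-exposed embryos from 2.71 to 5.65% with a median of 4.15%. The EtOH-exposed embryos lay mostly below the controls, 14 of 16 under the lowest of them, and all 22 embryos were measured at the same 5 CpGs. Controls averaged 6.01% ± 1.06 (SD, n = 6) and EtOH-exposed embryos 3.94% ± 0.917 (SD, n = 16). Its 2 start-window tiles differed by -1.08 and -1.5 percentage points in read-weighted means, with q of 0.158 and 0.119 in the logistic test over all tiles and q of 0.866 and 0.925 in the F test described below. Their unadjusted limma p values were 0.00841 and 0.0266, and both q values were 0.994.

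**Figure D1:**
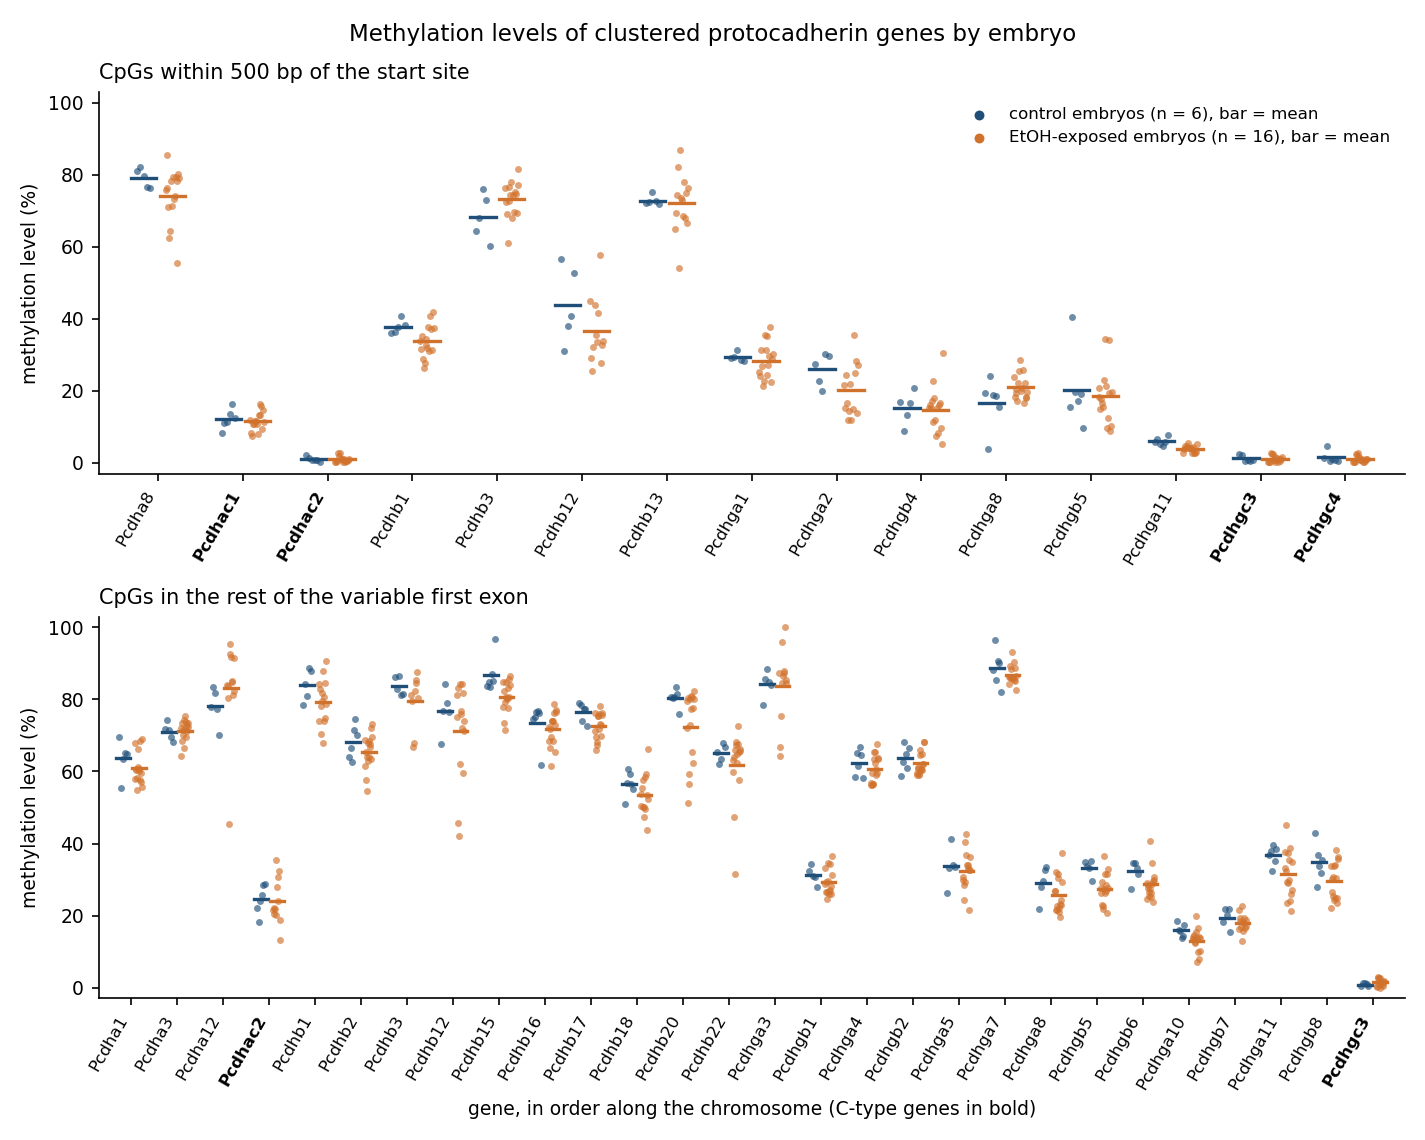
Methylation level (%) of each embryo at CpGs within 500 bp of the start site (top, 15 genes) and in the rest of the variable first exon (bottom, 28 genes), in chromosome order, with controls in blue and EtOH-exposed embryos in orange and bars at the group means. At the start windows, Pcdhac2, Pcdhgc3 and Pcdhgc4 lie near 0 in both groups and the control means of the other genes lie between 6.01 and 79.2%. The groups overlap at every gene.

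The 15 start windows with values were compared with those of all other genes, measured in the same way. Of the 15, 8 (53.3%) stood between 20 and 80% in controls, 4 (26.7%) under 10% and 0 over 80%. Among 12690 other genes with at least 2 measured CpGs, 372 (2.93%) stood between 20 and 80%, 11728 (92.4%) under 10% and 434 (3.42%) over 80%. The 15 windows share 1 locus and are those that rRRBS happened to cover, so these shares describe the measured windows only.

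Pooled over clusters, CpGs of the alternate genes had higher levels farther into the first exon. In the 250 bp downstream of the start site the control mean was 24.3% ± 19.7 (SD over 20 CpGs of 7 genes). It was 36.9% ± 18.4 over 32 CpGs from 250 to 500 bp, 44.3% ± 27.2 over 19 CpGs from 500 to 750 bp and 61.6% ± 25.98 over 29 CpGs from 750 to 1000 bp. In the bins from 1000 to 2500 bp it lay between 54.0 and 65.01%. In C-type genes it was 3.69% ± 7.24 over 24 CpGs in the first 250 bp, 3.83% ± 7.90 over 25 CpGs from 250 to 500 bp, 0.616% ± 0.362 over 9 CpGs of 1 gene from 750 to 1000 bp, and 7.01% ± 10.9 over 8 CpGs of 2 genes from 1000 to 1500 bp. The clusters did not all follow the pooled values. Gamma genes stood at 19.2% in the first 250 bp, 28.4 and 27.99% in the next 2 bins, 54.5% from 750 to 1000 bp and 59.6% from 1000 to 1500 bp, and then at 34.2% from 1500 to 2000 bp. Beta genes stood at 45.6% from 250 to 500 bp (3 genes) and 68.7% from 1500 to 2000 bp (7 genes). The 88.6% from 750 to 1000 bp came from 6 CpGs of 1 beta gene. Gamma genes gave 17 of the 20 CpGs in the first 250 bp and beta genes 30 of the 54 from 1500 to 2000 bp, so distance and cluster cannot be told apart in the pooled means. Different bins hold different genes, and CpGs of a gene are not independent, so these SDs describe the spread over CpGs.

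**Figure D2:**
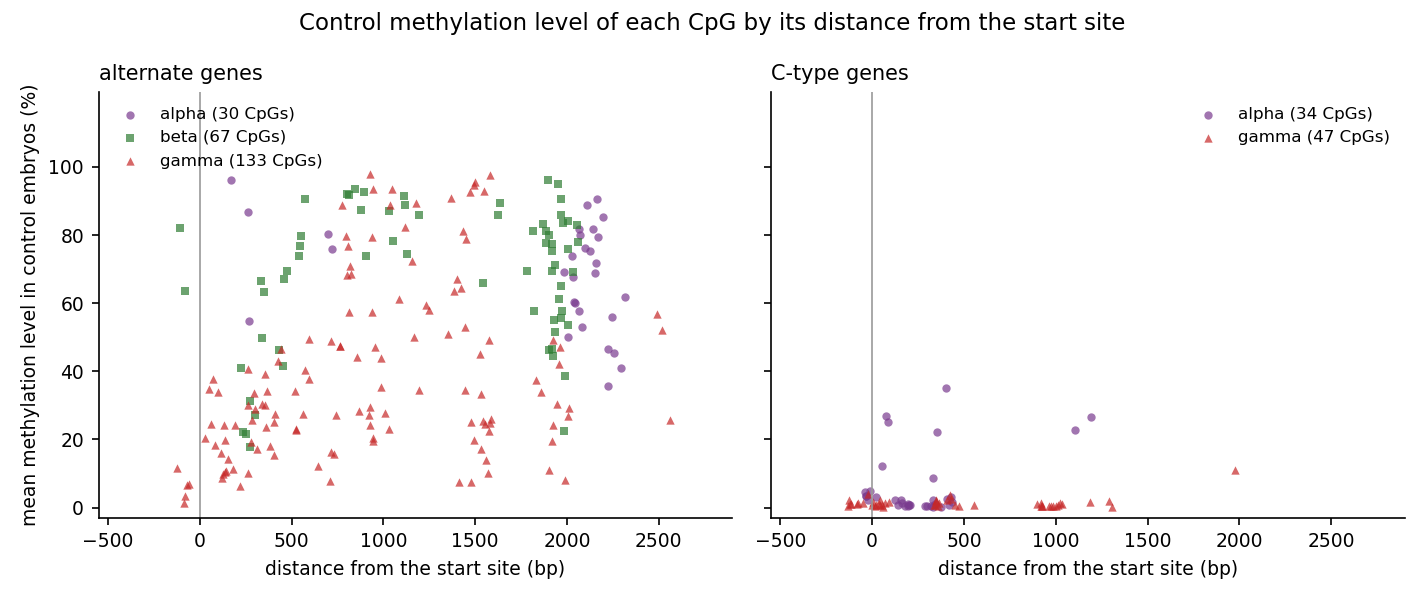
Mean level in control embryos (%) of each CpG by its distance from the gene's start site (bp), for alternate genes (left) and C-type genes (right), with 1 point per CpG in the start window or first exon and the cluster shown by colour and shape. Alternate CpGs spread over almost the whole scale beyond 500 bp, while most C-type CpGs lie near 0 except for several of the alpha cluster between 20 and 40%.

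Variable first exons beyond the start windows differed by cluster in the controls. The 3 alternate alpha genes stood at 63.6 to 78.1%, the 10 beta genes at 56.6 to 86.8% with a median of 76.6%, and the 13 alternate gamma genes at 15.98 to 88.8% with a median of 33.7%. Within the gamma cluster, the genes with values from Pcdhga8 onwards, which lie closest to the C-type genes, stood at 15.98 to 36.7%, whereas Pcdhga3, Pcdhga4, Pcdhgb2 and Pcdhga7 before them stood at 84.3, 62.5, 63.6 and 88.8%. Pcdhgb1 and Pcdhga5, at 31.3 and 33.7%, lie among those and did not share their level. The C-type exon of Pcdhgc3 stood at 0.832% ± 0.438 (SD, n = 5) over 15 CpGs, next to 24.6% ± 4.07 (SD, n = 6) over 2 CpGs for Pcdhac2. These gamma genes were singled out after their values were seen, and their CpGs lie at different distances from the start site. In 7 of the 8 genes with both values, the exon was higher than the start window in controls, the exception being Pcdhgc3.

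Constant exons were read too thinly for a comparison. No CpG there reached 10 reads in 5 samples of each condition. In the alpha constant exons, 11 CpGs gave 74 values in EtOH-exposed embryos with a median of 71.2% (range 10 to 100%), and 10 of them gave 23 values in controls with a median of 72.8% (range 37.5 to 96.2%). In the gamma constant exons, 3 CpGs gave 12 values of 0 to 4.0% in 4 EtOH-exposed embryos and 3 values of 0 to 7.69% in 1 control. The reads behind a value ranged from 10 to 163, and a level of 50% from 10 reads has a 95% Wilson interval of 23.7 to 76.3%, which covers counting error only.

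The effect of ethanol was first read at CpGs measured in all 22 embryos, so that every embryo was compared at the same sites. At 18 CpGs in the first exons of 5 beta genes, the controls ranged from 73.3 to 75.6% with a median of 74.5%, and the EtOH-exposed embryos from 61.9 to 75.4% with a median of 71.5%. Controls averaged 74.5% ± 0.793 (SD, n = 6) and EtOH-exposed embryos 70.1% ± 4.40 (SD, n = 16). The control values lay close together, 12 of 16 EtOH-exposed embryos lay below the lowest of them and none above the highest. EtOH-exposed embryos 4, 5 and 6 were the lowest, at 61.9, 63.5 and 63.1%. Most EtOH-exposed libraries also lay below all controls at genome-wide tiles outside these genes, as given below. Among these 18 CpGs, those in CCGG sites had differences of -13.04 to -3.40 percentage points. The others had differences of -7.33 to 3.73, so the lower level lay more at the CCGG sites.

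At 24 CpGs in the first exons of 5 gamma genes, the controls ranged from 47.6 to 50.3% with a median of 48.7% and the EtOH-exposed embryos from 42.61 to 50% with a median of 46.5%. Controls averaged 48.8% ± 1.18 (SD, n = 6) and EtOH-exposed embryos 46.2% ± 2.28 (SD, n = 16), and 11 of 16 EtOH-exposed embryos lay below all controls. At 17 CpGs in the start windows of Pcdhga8, Pcdhga11 and Pcdhgc3, the controls ranged from 2.69 to 4.26% (median 3.28%) and the EtOH-exposed embryos from 1.57 to 3.82% (median 2.32%), with 9 below all controls. The mean difference was -2.07 percentage points over the 5 CpGs of Pcdhga11, -1.81 at the 1 CpG of Pcdhga8 and -0.18 over the 11 CpGs of Pcdhgc3. Over all 71 gamma start-window CpGs, not all measured in every embryo, it was -0.40, with 1 EtOH-exposed embryo below and 2 above all controls. At 9 CpGs in the start window of Pcdhac1, the only alpha gene with such CpGs, the 2 groups spanned nearly the same range, 7.79 to 11.5% (median 9.32%) and 6.41 to 11.4% (median 9.11%). No start window of a beta gene had CpGs in all 22 embryos.

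The libraries themselves differed. A mean level was taken over 2616 genome-wide tiles outside these genes, measured in all 22 libraries and at 20 to 80% in the controls. It was 55.4 to 57.4% in the controls and 42.9 to 57.8% in the EtOH-exposed libraries, with EtOH-exposed 4, 5 and 6 at 44.0, 42.9 and 43.4%. EtOH-exposed 2, 8, 9 and 14 were also low, at 47.6, 50.2, 49.8 and 45.9%. Only EtOH-exposed 7, 10, 12 and 15, at 56.6, 57.3, 57.8 and 56.0%, were not below the lowest control. The level at unmethylated tiles, which bisulfite conversion can set, was 0.672 to 1.52% in the controls and 0.26 to 2.54% in the EtOH-exposed libraries. It was 2.54, 2.45 and 2.41% in EtOH-exposed 4, 5 and 6. The log2 ratio of coverage at methylated over unmethylated tiles was -3.79 to -2.67 in the controls and -4.86 to -2.91 in the EtOH-exposed libraries. The difference between group means was -4.40 percentage points at the beta exons and -2.65 at the gamma exons. Without EtOH-exposed 4, 5 and 6 it was -2.73 and -1.90. By the level at unmethylated tiles, the 6 controls and 7 of the EtOH-exposed libraries formed 1 group without a wide gap, called the shared library group here. They were not matched within it, since the 7 EtOH-exposed libraries stood at 0.834 to 1.38%, controls 3 to 6 below all of them and controls 1 and 2 above. In the shared library group the difference was -1.39 and -0.745. At the gamma start windows the 3 differences were -0.832, -1.07 and -0.687. The part of these library differences in the results was not tested. At Pcdhac2, Pcdhgc3 and Pcdhgc4 the same 3 EtOH-exposed libraries gave the highest values of the EtOH-exposed group, 2.0 to 2.85% at the start windows.

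**Figure D3:**
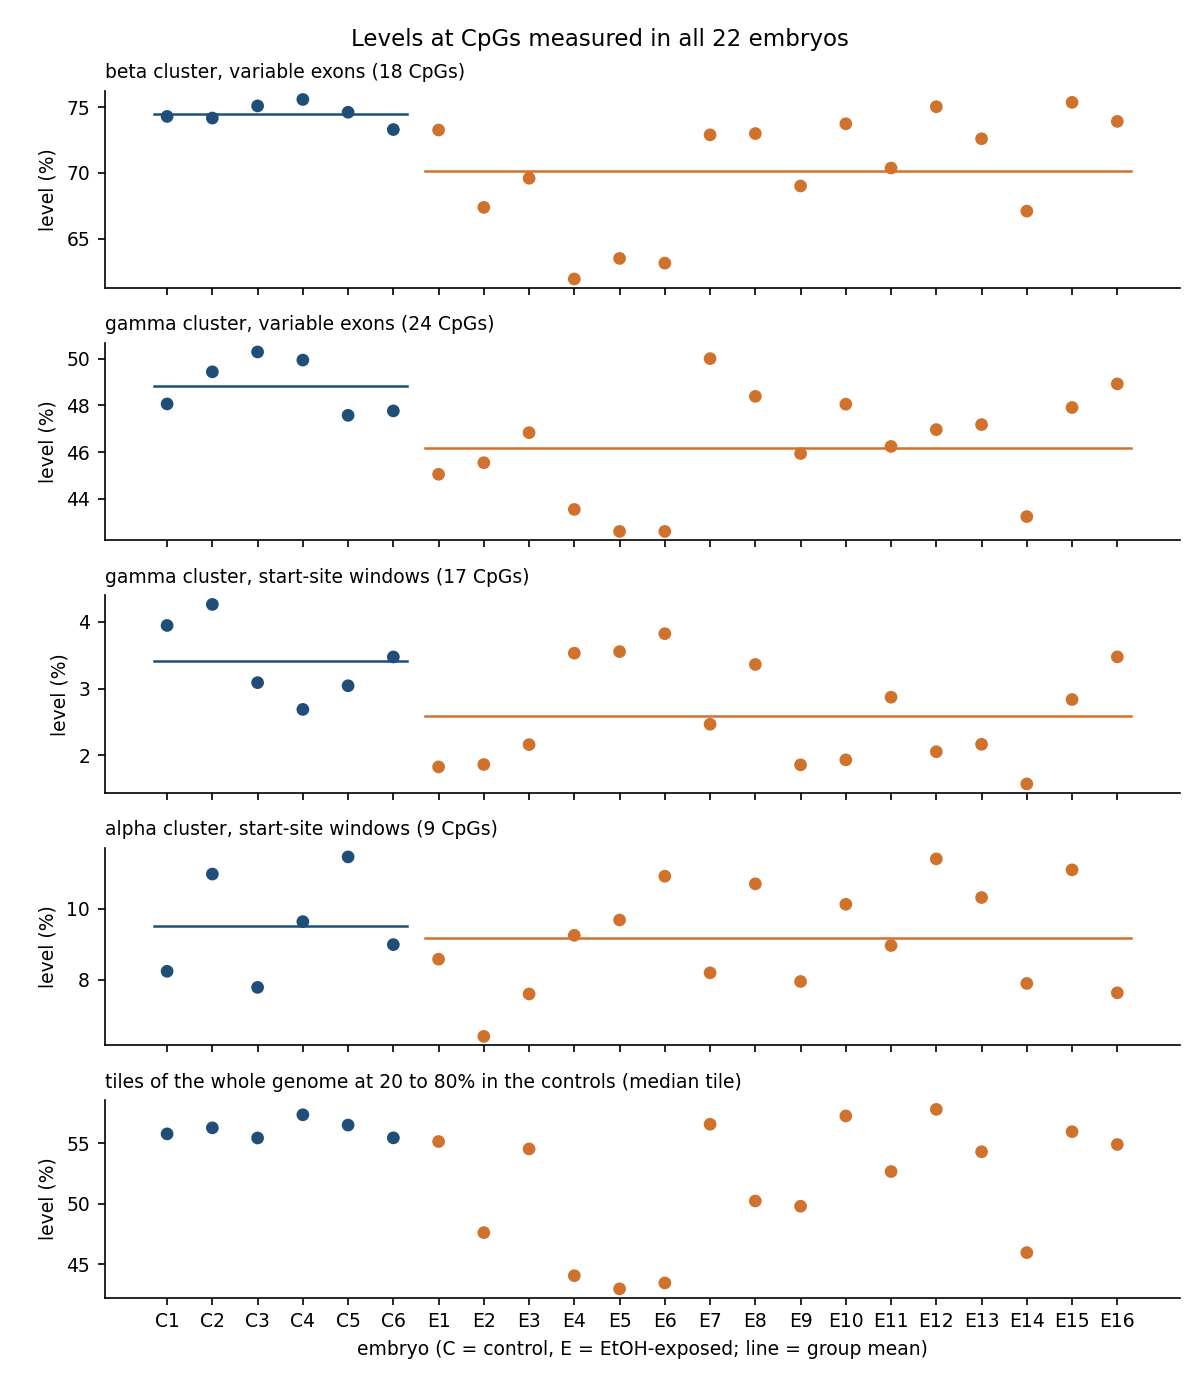
Mean level (%) of each embryo at protocadherin CpGs measured in all 22 embryos, in 4 classes, and the mean level (%) of genome-wide tiles at 20 to 80% in the controls (bottom), with controls (C) in blue, EtOH-exposed embryos (E) in orange, lines at the group means and a separate vertical scale for each panel. The bottom panel shows means over tiles, although its title reads median. EtOH-exposed embryos 4, 5 and 6 lie lowest in the beta exon panel and in the genome-wide panel, at 61.9 to 63.5% and 42.9 to 44.0%.

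Gene by gene, the EtOH-exposed mean was lower in 13 of 15 start windows and in 25 of 28 exons. Of those 13 windows, Pcdhgc3, Pcdhgc4 and Pcdhb13 were higher in the EtOH-exposed group by the median. Control 2, far above the other controls, raised the control means of Pcdhgb5 and Pcdhgc4. Start-window differences ranged from -7.40 percentage points at Pcdhb12 to 4.85 at Pcdhb3, with a median of -0.629. Among all genes, 38.4% of the 12690 other start windows were lower, and most of those are near 0. For the exons, 80.9% of all tiles at 20 to 80% in controls were lower. That share is only a rough guide, since it counts read-weighted differences of single tiles. The exons have unweighted gene means, and 19 of the 28 lay at 20 to 80% in controls. Over all embryos, all 10 beta exons were lower, with differences of -7.97 to -1.82 percentage points and a median of -3.96. All 13 alternate gamma exons were lower as well, with differences of -5.79 to -0.50 and a median of -1.96. The smallest of these, at Pcdhga3, went the other way by the median, 86.0% in EtOH-exposed embryos and 84.9% in controls. Its difference of means in the shared library group was 3.75. Of the 3 alternate alpha exons, 2 were higher over all embryos. The SD was larger in the EtOH-exposed group in 22 of 28 exons, against 77.5% of all tiles, and in 7 of 15 start windows, against 80.1% of all tiles within 500 bp of a start site. In the shared library group fewer exons were lower, 16 of 28 in all, with 6 of 10 in the beta cluster (median -1.53) and 9 of 13 among alternate gamma genes (median -1.21), and 9 of 15 start windows were lower. Without EtOH-exposed 4, 5 and 6, 22 of 28 exons and 12 of 15 start windows were lower. Among these exons were 10 of 10 in the beta cluster (median -1.91) and 11 of 13 of alternate gamma genes (median -1.94). Genes share embryos and libraries, so these counts are not independent observations.

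The 5 exons with the largest differences downward, and Pcdha12 with the largest upward, were picked for description after their values were seen. At Pcdhb20 (3 CpGs) the controls ranged from 75.9 to 83.4% with a median of 80.6% and the EtOH-exposed embryos from 51.3 to 82.5% with a median of 77.5%. At Pcdhb15 (4 CpGs) the controls ranged from 83.4 to 96.7% with a median of 84.96% and the EtOH-exposed embryos from 71.5 to 86.5% with a median of 80.8%. The highest control at Pcdhb15 stood apart from the others and raised the control mean to 86.8%, which enlarged the difference of means. Among EtOH-exposed embryos 7 lay under all controls at Pcdhb20 and 11 at Pcdhb15, and the SD at Pcdhb20 was 2.47 in controls and 10.2 in EtOH-exposed embryos. At Pcdhb12 (2 CpGs) the 5 measured controls stood at 67.7, 76.5, 76.7, 78.97 and 84.3% and 15 EtOH-exposed embryos ranged from 42.1 to 84.3% with a median of 75.1%, of which 4 lay under all controls. At Pcdhgb5 (7 CpGs) the 5 measured controls stood at 29.5, 33.1, 33.8, 34.8 and 35.2% and the EtOH-exposed embryos ranged from 20.8 to 36.6% with a median of 27.4%. At Pcdhga11 (6 CpGs) the controls ranged from 32.4 to 39.5% with a median of 37.2% and the EtOH-exposed embryos from 21.1 to 45.04% with a median of 31.2%. Of the EtOH-exposed embryos 12 lay under all controls at Pcdhgb5 and 9 at Pcdhga11. The alpha gene Pcdha12 (2 CpGs) went the other way, with 70.2, 77.3, 77.8, 81.8 and 83.3% in 5 controls and 45.5 to 95.5% in 12 EtOH-exposed embryos (median 84.5%), of which 8 lay over all controls. Differences of the means over all embryos and in the shared library group were -7.97 and -3.81 percentage points at Pcdhb20, -6.001 and -4.03 at Pcdhb15, and -5.52 and -2.35 at Pcdhb12. They were -5.79 and -2.46 at Pcdhgb5, -5.16 and -6.94 at Pcdhga11, and 5.15 and 8.97 at Pcdha12.

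The tests over all 114430 tiles were then read at the 88 protocadherin tiles, by 3 methods: a logistic test of the reads, the same model with an F test that lets embryos vary, and limma on log2 ratios of methylated to unmethylated reads. A tile was called a differentially methylated region (DMR) at q under 0.01 and a read-weighted difference of at least 10 percentage points. By the logistic test, 0 of the 88 tiles were DMRs, against 1.14% of all tiles (1.08% lower and 0.0516% higher). In none of the 88 did the groups lie apart without overlap, against 0.0201% of all tiles for lower and 0.00262% for higher. At an unadjusted p under 0.05, the logistic test gave 40 of the 88 (42.3% of all tiles), the F test 6 (5.77% of all tiles) and limma 2 (4.45% of all tiles). No tile of the genome was a DMR by the F test or limma. The smallest protocadherin q was 0.843 by the F test and 0.994 by limma, so no difference at these tiles passed a test that uses the spread between embryos. Over all 114430 tiles the smallest q was 0.0425 by the F test and also 0.994 by limma. A limma q of 0.994 therefore says nothing about a single tile.

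By q alone in the logistic test, 21 of the 88 tiles were lower (12.9% of all tiles) and 5 higher (8.84% of all tiles), with sizes under the 10-point limit. Among tiles at 20 to 80% in controls, 16 of 52 protocadherin tiles and 4133 of all 10221 were lower by q, and 1 and 289 were higher. Differences over the 88 tiles ranged from -8.46 to 6.49 percentage points with a median of -1.57, against -0.13 over all tiles. Within the shared library group the median was -0.24 over 86 protocadherin tiles and 0.06 over all tiles, and without CpGs of CCGG sites it was -0.85 over 61 and -0.0023 over all. In all embryos 65 of the 88 were lower against 56.2% of all tiles. By cluster, 12 of 21 alpha tiles were lower with a median of -0.28, 21 of 23 beta tiles with a median of -2.09 and 32 of 44 gamma tiles with a median of -1.44. The 16 tiles of C-type genes had a median difference of 0.31. The tiles were also compared with all tiles of like control level. Of the 88 tiles, 52 (59.1%) lay at 20 to 80% in controls, against 8.93% of all tiles. Within that range the median difference was -1.87 for the 52 protocadherin tiles and -3.34 for all 10221 tiles, and 78.8% and 80.9% were lower. DMRs were 0 of the 52 and 10.9% of the 10221. Over 80% in controls, the median difference was -2.08 for 14 protocadherin tiles and -0.71 for all 41963 tiles. Of these, 4 of the 14 and 5057 of the 41963 were lower by q. Under 10% in controls, the median difference was 0.29 for 15 protocadherin tiles and 0.12 for all 60525. In bins of 10 percentage points of control level, 75 of the 88 tiles lay between the 10% and 90% quantiles of all tiles in their bin. Of the others, 4 lay below and 9 above, and 33 of the 88 lay below the median of their bin. The bins differed, with 9 of 10 protocadherin tiles below that median at 80 to 90% and 0 of 11 at 60 to 70%.

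**Figure D4:**
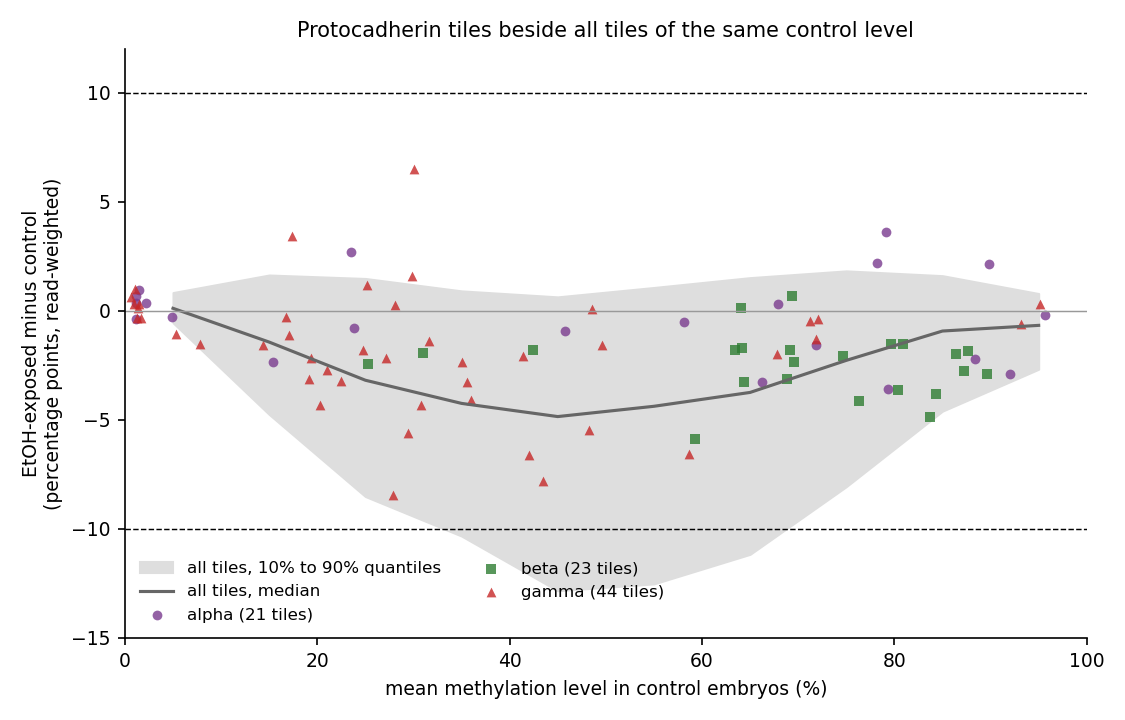
Read-weighted difference (EtOH-exposed minus control, percentage points) of the 88 protocadherin tiles against their mean level in control embryos (%), by cluster, with the median and the 10% to 90% quantiles of all 114430 tiles in bins of 10 percentage points and dashed lines at 10 points. All 88 tiles lie between -8.46 and 6.49, and 75 lie within the quantiles of their bin.

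The tile with the smallest p lay in the first exon of Pcdhgb5, 1979 bp past the start site (37732901 to 37733000). Its 5 measured controls stood at 26.9, 30.2, 30.8, 32.4 and 33.6%, and the 16 EtOH-exposed embryos ranged from 21.2 to 34.4% with a median of 25.4%. Of the EtOH-exposed embryos 10 lay below all controls. The read-weighted difference was -4.31 percentage points (logistic q = 3.37e-12, F test q = 0.844, limma q = 0.994). The difference of unweighted means was -4.38 over all embryos and -1.62 in the shared library group.

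Next came a tile at the start site of Pcdhga8 (37725701 to 37725800), the only 1 of the 4 that was higher. Its 5 measured controls stood at 25.96, 26.2, 29.3, 33.8 and 35.0% and the EtOH-exposed embryos ranged from 25.7 to 53.0% with a median of 34.7%. The groups overlapped, with 8 of 16 EtOH-exposed embryos above all controls and 1 below. The difference was 6.49 percentage points (logistic q = 1.77e-06, F test q = 0.867, limma q = 0.994), and in unweighted means 5.47 over all embryos and 7.56 in the shared library group.

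The other 2 tiles lay in Pcdha1 and Pcdhb1, the first genes of their clusters. In the first exon of Pcdha1 (36932401 to 36932500) the 5 measured controls stood at 71.3, 75.9, 80.7, 81.2 and 87.3% and the EtOH-exposed embryos ranged from 66.9 to 82.4% with a median of 73.7%, a difference of -3.56 percentage points (logistic q = 2.81e-06, F test q = 0.875, limma q = 0.994). In the start window of Pcdhb1 (37265301 to 37265400) the 5 measured controls stood at 56.7, 58.0, 59.4, 59.6 and 62.8% and the EtOH-exposed embryos ranged from 45.1 to 64.0% with a median of 54.4%. Here 11 of 16 EtOH-exposed embryos lay below all controls, and the difference was -5.87 percentage points (logistic q = 1.27e-05, F test q = 0.843, limma q = 0.994). In unweighted means the difference at Pcdha1 was -5.47 over all embryos and -3.65 in the shared library group, and at Pcdhb1 it was -4.39 and -2.35. The largest difference of the 88 tiles, -8.46 percentage points at a tile of Pcdhga5 whose 2 measured CpGs lie in the first exon at 519 and 525 bp from the start site, was picked after the values were seen. In unweighted means it was -3.005 over all embryos and 0.933 in the shared library group.

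Other genes of the pathway were read from 5 kb upstream to 1 kb past each gene, without the 88 tiles above. Among 10 protocadherins outside the clusters, 109 tiles had a median difference of -0.02 percentage points and 1 DMR (1.14% of all tiles were DMRs). That tile lay near Pcdh12 (38267401 to 38267500), a protocadherin of endothelial cells, at 87.8% ± 5.37 (SD, n = 6) in controls and 80.3% ± 14.7 (SD, n = 10) in EtOH-exposed embryos, with a read-weighted difference of -12.5 percentage points (logistic q = 7.44e-08, F test q = 0.866, limma q = 0.994). Among 14 regulators, which include Ctcf, the cohesin subunits Rad21, Smc3 and Stag1, and the methyltransferases Dnmt1, Dnmt3a and Dnmt3b, 146 tiles had a median difference of 0.03 and 0 DMRs, with 54 tiles at an unadjusted p under 0.05 by the logistic test, 4 by the F test and 2 by limma. Among 15 other genes within the locus, such as the general transcription factor gene Taf7, 5 had a tile, and their 11 tiles held 0 DMRs, with 5, 2 and 1 tiles at an unadjusted p under 0.05. Over all tiles these shares were 42.3% by the logistic test, 5.77% by the F test and 4.45% by limma. Only 4 of the 109 and 2 of the 146 tiles lay at 20 to 80% in controls, against 52 of the 88 protocadherin tiles.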

How the data were processed

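The authors prepared rRRBS libraries of 22 E10.5 forebrains (6 controls, 16 EtOH-exposed), trimmed reads with Trim Galore 0.3.3, aligned them to mm10 with BSMAP 2.90 and called methylation. Per the file headers and values, the deposited counts are the reads covering each CpG cytosine by strand, not normalized. The deposited percent values are the shares of methylated and unmethylated reads, rounded by the authors to 1 decimal. Methylated reads were recovered as count times percent.

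All 2809605 autosomal CpGs were checked to lie at CpGs of GRCm38. Strands with at least 10 reads were added up. Tiles of 100 bp on chromosomes 1 to 19 needed 2 CpGs per sample and 5 samples per condition. The 2 groups were compared at every tile by logistic regression (likelihood-ratio p), with Benjamini-Hochberg adjustment over all tiles, after the study's methods. An F test with overdispersion and limma 3.58.1 (R 4.3.3), with 0.5 added to both read numbers, were alternatives. Other computing used Python 3.11.15 with numpy 2.4.6 and scipy 1.17.1. The tests were checked on simulated tiles, where recovery of changed tiles was required only under binomial noise. Added spread between embryos lowered the power of limma, and there only the size of the difference and false calls were checked.

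Gene models were curated RefSeq transcripts. Start windows took precedence over first exons. A gene's level needed 2 CpGs in an embryo. Libraries were grouped by their level at unmethylated tiles, with a new group where sorted values rose by a ratio over 1.3. The median of 123 reads per CpG gives a 95% Wilson interval of 40.9 to 58.3% at 49.6%, for counting error only, since PCR copies were not told apart.

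Named genes were the C-type genes and, in the alpha, beta, gamma A and gamma B subfamilies, up to 2 highest and 2 lowest in control start-window level, with the 4 tiles of smallest p since none was called. The members and lists were chosen with earlier results of these data known. Replicate numbers did not pair samples. Differences by gene within library groups were chosen after seeing the data. No sequence is printed, since the promoter table used held none of the 58 genes. The logistic p-values measure counting error in pooled reads, and the F test and limma also use the spread between embryos.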

Additional observations from a re-analysis of the deposited data

Results flagged for a closer look

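Start-window levels of 15 genes, the 6 class levels and the 4 tiles were examined for a control embryo far from the other controls, in 25 groups of 5 or 6 values, of which chance flags about 1 in 20. In 3 of them 1 control stood apart. Control 2 stood at 40.6% at the start window of Pcdhgb5, against 9.62 to 19.6% in the other 5 controls, with a value at all 6 CpGs. Control 2 also stood at 4.64% at Pcdhgc4, against 0.595 to 1.5%, with 8 of 11 CpGs measured. Control 3 stood at 75.2% at Pcdhb13, against 72.0 to 72.7%, from 2 CpGs. Control 2 had values at 78653 tiles, the fewest of the 22 libraries, and 1.5% methylation at unmethylated tiles. The part of this in its values was not tested. First-exon levels of single genes were not examined in this way.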

How the results depend on the processing

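The count of 0 protocadherin DMRs was also 0 with each embryo left out in turn (lowest and highest 0) and under every other setting but 1 pair. Replicate numbers did not pair samples, since same-numbered embryos correlated by -0.11 to 0.25 and only replicate 2 correlated best with its own number. In embryos 1 to 6 of both groups, with 24 protocadherin tiles, 1 was a lower DMR with the replicate block and 1 without it, a tile of the Pcdhga4 exon, against 0 in limma with or without the block. The 21 lower and 5 higher tiles by q alone became 0 and 0 by the F test, limma, limma with or without the block, and the F test within the shared library group. They were 12 lower with a minimum of 20 reads, 6 and 2 in tiles measured in all 22 samples, 6 lower without CpGs of CCGG sites, 4 and 3 in the shared library group, 11 and 2 without EtOH-exposed 4, 5 and 6, 10 and 2 in embryos 1 to 6 with the block and 10 and 2 without it, and 3 higher by unweighted means. Fewer tiles were tested in several of these. Leaving out 1 embryo gave 3 to 23 lower and 0 to 6 higher, with 8 and 2 without control 1, 6 and 2 without control 3, 3 and 1 without control 4, 4 and 0 without control 5, 9 and 2 without control 6, and 3 higher without EtOH-exposed 4. Leaving out a control also left fewer tiles that met the sample minimum.

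Leaving out 1 embryo cannot move a class difference by the pooled spread between embryos at these group sizes, so those 132 checks give only the ranges below. Of the other checks, 70 moved by less than that spread, among them those with predicted gene models, which the members lack. The spread is wide beside the differences, so moving by less does not show that a difference held. The beta exon difference in the shared library group, given above, counted as moving by less. The same limit applies to the start-window differences below. In 2 checks the class difference moved by more than the spread. With a start window of 1000 bp, which takes in exon CpGs, the difference was -2.06 percentage points for gamma start windows and -1.78 for all start windows, where it had been -0.832 and -0.663. Leaving out 1 embryo gave -4.75 to -3.86 for beta exons, -2.91 to -2.36 for gamma exons, -0.98 to -0.66 for gamma start windows, -0.69 to 0.04 for alpha start windows, -0.90 to 0.03 for other alpha CpGs and -0.83 to -0.45 for all start windows. Control start-window levels moved by more than their SD in 12 checks and by less in 68. Start-window differences moved that far in 2 checks, at Pcdha8 with a minimum of 5 reads (10.8 percentage points, against -5.17) and at Pcdhb1 with a window of 250 bp (-10.04, against -4.06), and by less in 78. The 1 DMR among protocadherins outside the clusters became 0 by the F test and 0 by limma. Settings without EtOH-exposed 4, 5 and 6, the F test within the shared library group, and embryos with every CpG of a window were chosen after seeing the data. Most of the 8422 CpGs were not read, and several gene values rest on 2 or 3 CpGs.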
